A study of Homo sapiens with 14 samples.

Results

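The 10 genes described here are a chosen set from the insulin-like growth factor (IGF) axis, followed in a prostate cancer cell line. They are the binding proteins IGFBP2, IGFBP3, IGFBP4, IGFBP5 and IGFBP6, the receptors IGF1R, IGF2R and INSR, and the receptor substrates IRS1 and IRS2. They were taken from 27819 genes shared by the 4 deposited count tables, by gene number in the SGN-2FF table and by symbol in the others. All 10 were found in each table. RNA was sequenced from CWR22Rv1 cells, a human prostate carcinoma line, kept for 72 h in the vehicle DMSO or in an inhibitor, namely Fucotrim I at 30 μM, Fucotrim II at 60 μM, SGN-2FF at 100 μM or P-SiaFNEtoc at 2 μM, with 2 libraries for Fucotrim II and 3 for each of the other conditions. Fucotrim I and Fucotrim II are derivatives of rhamnose 1-phosphate aimed at the de novo synthesis of GDP-fucose, SGN-2FF is 2-fluorofucose, and P-SiaFNEtoc is a fluorinated sialic acid that inhibits sialyltransferases. The labels call the libraries biological replicates and do not say how the cultures were separated, so p-values measure the spread between these libraries. Each inhibitor was given at 1 dose and 1 time in 1 cell line, the doses differ between inhibitors, and all 4 comparisons use the same 3 DMSO libraries.

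IGF1 and IGF2 are secreted growth factors that circulate bound to IGF binding proteins, which hold them away from their receptors or deliver them. IGF1R and INSR are receptor tyrosine kinases that phosphorylate IRS1 and IRS2, the docking proteins through which the PI3K and AKT and the RAS and MAPK arms are switched on, while IGF2R, the mannose 6-phosphate receptor, takes IGF2 to the lysosome. In the prostate the axis is best known for promoting growth and survival of epithelial cells, and IGFBP3 is known both as the main carrier of IGFs in serum and as an inhibitor of growth.

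The libraries held between 12553094 and 19981453 counts on genes. Levels are given as CPM (counts scaled by library size) on 1 TMM scale of the 14 libraries, and changes are log2 fold changes against DMSO with their standard errors (SE), from a fit for each inhibitor across all genes. A gene is called where its adjusted p-value was under 0.05. The 10 genes were selected on their measured log2 fold changes and calls against DMSO, which were already known, so their changes and calls are given as a description with no test. All 8 markers of prostate luminal carcinoma cells were detected in every group, with summed levels of 2176 to 2258 CPM in DMSO, 2974 to 3079 with Fucotrim I, 2794 to 3105 with Fucotrim II, 2667 to 2794 with SGN-2FF and 2470 to 2539 with P-SiaFNEtoc. The part of this shift in the changes described here was not tested. The summed endothelial markers reached at most 0.251 CPM. The fibroblast list summed to 18.7 to 33.0 CPM, most of it from COL1A1 (group means of 16.9 to 26.2 CPM). The leukocyte list summed to 4.73 to 8.33 CPM, most of it from CD68 (group means of 5.34 to 7.29 CPM), with CD3E at 0 in every library.

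IGFBP3 (ENSG00000146674, chr7:45912245-45921874 on the minus strand of hg38) and IGF1R (ENSG00000140443, chr15:98648539-98964530 on the plus strand) changed the most among the 8 members that passed the filter on low counts, with each fucosylation inhibitor, and in opposite directions, so the 250 bases before their RefSeq transcription starts are shown. Capitals mark matches to the GC box letters GGGCGG on either strand (CCGCCC on the strand shown) and, for IGFBP3, a TATATA stretch at position -30 counted from the start. The IGFBP3 window is chr7:45921273-45921522 and lies inside the GENCODE span of the gene, and the IGF1R window is chr15:98648289-98648538.
IGFBP3: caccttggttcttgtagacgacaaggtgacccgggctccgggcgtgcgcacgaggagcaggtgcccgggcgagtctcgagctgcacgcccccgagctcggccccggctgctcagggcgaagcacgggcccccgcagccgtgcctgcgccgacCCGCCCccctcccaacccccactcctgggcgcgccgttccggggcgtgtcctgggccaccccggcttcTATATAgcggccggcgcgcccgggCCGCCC
IGF1R: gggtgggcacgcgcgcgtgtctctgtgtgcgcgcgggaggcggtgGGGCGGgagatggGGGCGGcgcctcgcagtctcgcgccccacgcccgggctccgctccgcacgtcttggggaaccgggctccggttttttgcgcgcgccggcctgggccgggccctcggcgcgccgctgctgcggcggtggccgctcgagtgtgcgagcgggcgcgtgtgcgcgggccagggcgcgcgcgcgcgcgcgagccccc
Both windows are rich in G and C (76.0% for IGFBP3 and 81.2% for IGF1R) and hold 2 GC boxes each. Of 35116 RefSeq promoter windows of the same length, 42.6% hold GGGCGG, 3.7% hold TATATA and 10.7% hold TATAAA on either strand, with matches to the last of these in neither window. TATATA was searched after the IGFBP3 sequence was seen. Of the other members, IGF2R had 6 GC boxes in its window, IRS2 had 5, INSR and IRS1 had 4 each, and IGFBP5 had 0. A match is a description of the letters and was not linked to the changes below.

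In DMSO, IGFBP3, IGFBP2 and IRS2 had higher levels per kb of annotated exon than any of the receptors. On that scale IGFBP3 had the highest mean level in DMSO (45.7 ± 2.86 CPM per kb, SD, n = 3), followed by IGFBP2 (27.7 ± 1.54) and IRS2 (27.5 ± 3.06), whose spreads overlap. IGF2R (5.86 ± 0.171 CPM per kb) and IRS1 (5.80 ± 0.366) did not differ beyond their spread either. INSR followed at 3.28 ± 0.0593 CPM per kb, and IGF1R was the lowest of the receptors at 0.811 ± 0.0217. The lowest levels were those of IGFBP5, IGFBP6 and IGFBP4, at 0.140, 0.131 and 0.0261 CPM per kb. IGFBP5 had 10 to 23 counts per DMSO library. IGFBP6 and IGFBP4 had at most 4 and 2 counts there and were near the limit of detection. With the length of the longest transcript in place of all exons, 8 of the 10 places in this order were kept and IGFBP5 and IGFBP6 changed places. The closeness of IGF2R and IRS1 was not kept with that length, as their means were 9.315 and 5.953 CPM per kb.

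IGFBP3 separated the conditions more cleanly than any other gene of the axis. Its level was 213, 194 and 219 CPM in the DMSO libraries, 119, 116 and 120 CPM with SGN-2FF, 86.5, 78.6 and 84.9 CPM with Fucotrim I, and 65.02 and 60.01 CPM with Fucotrim II. With P-SiaFNEtoc it was 221, 223 and 248 CPM. No library of one condition overlapped with a library of another, and the order was P-SiaFNEtoc, DMSO, SGN-2FF, Fucotrim I and Fucotrim II from high to low. The gap was small between DMSO, at up to 219 CPM, and P-SiaFNEtoc, at 221 CPM or more. How many of all genes separate every condition was not counted. For a single inhibitor and DMSO, the libraries of 33.7% to 67.7% of all genes did not overlap. Against DMSO, the log2 fold change was -1.32 with Fucotrim I (SE 0.058, 2.50-fold lower), -1.74 with Fucotrim II (SE 0.080, 3.35-fold lower) and -0.81 with SGN-2FF (SE 0.046, 1.75-fold lower). With P-SiaFNEtoc it was 0.15 (SE 0.047, 1.11-fold higher). These changes are in bulk RNA, where fewer cells of a type and less RNA per cell cannot be told apart. The calls for the 3 fucosylation inhibitors were kept in every alternative that left more than 1 library in each group. The small P-SiaFNEtoc difference was no longer called without DMSO replicate 2, without P-SiaFNEtoc replicate 3, or with all 14 libraries in 1 fit.

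**Figure D1:**
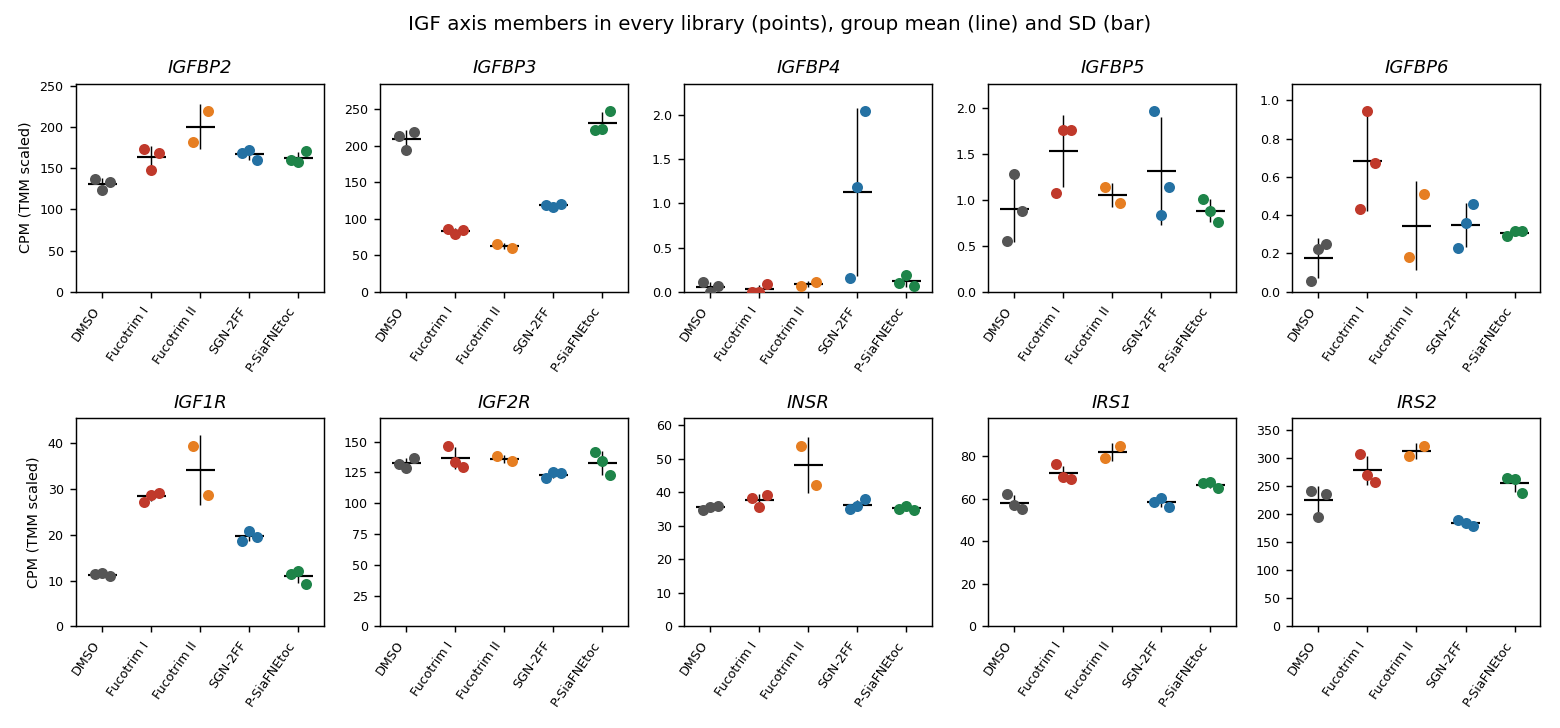
Level of each of the 10 IGF axis genes in every library, in CPM on a linear axis from 0. Points are libraries, the horizontal line is the group mean and the vertical bar its SD. IGFBP3 lies at 194 to 219 CPM in DMSO and at 60.01 and 65.02 CPM in Fucotrim II, and IGF1R at 10.97 to 11.56 CPM in DMSO and at 28.7 and 39.5 CPM in Fucotrim II.

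IGFBP2 (chr2:216632828-216664436), a secreted binding protein for IGF1 and IGF2, was at 138, 123 and 133 CPM in DMSO, 174, 148 and 169 CPM with Fucotrim I, 181 and 220 CPM with Fucotrim II, 169, 172 and 160 CPM with SGN-2FF, and 160, 158 and 171 CPM with P-SiaFNEtoc. All treated libraries were higher than all DMSO libraries. Fitted log2 fold changes were 0.32 (SE 0.061) with Fucotrim I, 0.60 (SE 0.087) with Fucotrim II, 0.36 (SE 0.046) with SGN-2FF and 0.31 (SE 0.045) with P-SiaFNEtoc. Per kb of annotated exon, the ratio of IGFBP3 to IGFBP2 was 1.65 ± 0.0516 in DMSO (SD, n = 3) and 1.47 ± 0.0347 with P-SiaFNEtoc (n = 3). It was 0.737 ± 0.0408 with SGN-2FF (n = 3), 0.530 ± 0.0187 with Fucotrim I (n = 3) and 0.328 ± 0.0629 with Fucotrim II (n = 2). On this scale the ratio was above 1 in each DMSO and P-SiaFNEtoc library and below 1 in each library of the fucosylation inhibitors. The switch with SGN-2FF depended on the gene length. With the longest transcript as the length, IGFBP3 stayed higher there (mean 45.01 CPM per kb, against 37.86 for IGFBP2). With that length, IGFBP3 was lower than IGFBP2 with Fucotrim I (31.68 against 37.06) and Fucotrim II (23.76 against 45.47).

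IGFBP4, IGFBP5 and IGFBP6 had too few counts for a reading of most changes. IGFBP5 (chr2:216672105-216695549), which binds IGFs and matrix, had 10 to 26 counts per library, and its log2 fold changes were 0.76 (SE 0.33), 0.21 (SE 0.38), 0.51 (SE 0.35) and -0.01 (SE 0.33) with Fucotrim I, Fucotrim II, SGN-2FF and P-SiaFNEtoc, none of them called. The Fucotrim I value was called without DMSO replicate 2, without Fucotrim I replicate 1, and with the replicate number as a block. Of its exon bases, 7.5% lie opposite the noncoding gene DIRC3-AS1. IGFBP6, which prefers IGF2, had 1, 4 and 4 counts in DMSO and 3 to 14 counts in the treated libraries. IGFBP4, an inhibitory binding protein, had 2, 0 and 1 counts in DMSO, 0 to 3 counts with Fucotrim I, Fucotrim II and P-SiaFNEtoc, and 2, 20 and 27 counts with SGN-2FF. Neither IGFBP4 nor IGFBP6 passed the filter on low counts in the fit of any inhibitor with DMSO, so no change is given for them. A count of 0 allows up to 3 counts, or 0.150 to 0.239 CPM at these depths, for counting error only.

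IGF1R moved against IGFBP3. This receptor, which binds IGF1 and IGF2, was at 11.38, 11.56 and 10.97 CPM in DMSO, 18.7, 20.8 and 19.5 CPM with SGN-2FF, 27.3, 28.8 and 29.1 CPM with Fucotrim I, and 39.5 and 28.7 CPM with Fucotrim II. P-SiaFNEtoc gave 11.5, 12.1 and 9.33 CPM, overlapping DMSO. SGN-2FF lay apart from both DMSO and Fucotrim I, while the libraries of the Fucotrims overlapped, since Fucotrim II replicate 2 was within the range of Fucotrim I. The log2 fold change was 1.33 with Fucotrim I (SE 0.085, 2.51-fold higher), 1.59 with Fucotrim II (SE 0.135, 3.00-fold higher), 0.81 with SGN-2FF (SE 0.086, 1.76-fold higher) and -0.03 with P-SiaFNEtoc (SE 0.10). The ratio of IGFBP3 to IGF1R per kb was 56.4 ± 4.90 in DMSO (SD, n = 3), 65.3 ± 13.7 with P-SiaFNEtoc (n = 3), 18.4 ± 1.26 with SGN-2FF (n = 3), 8.97 ± 0.677 with Fucotrim I (n = 3) and 5.70 ± 0.957 with Fucotrim II (n = 2).

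**Figure D2:**
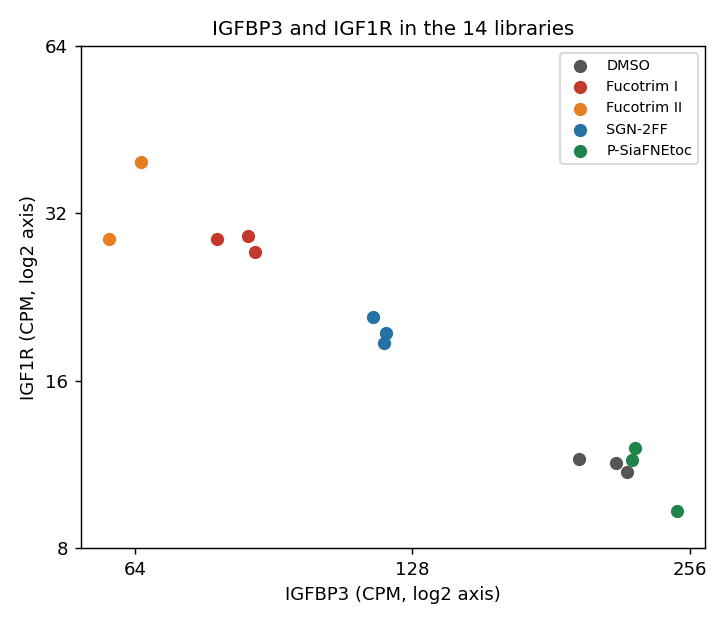
IGFBP3 level (x axis) against IGF1R level (y axis) in the 14 libraries, both in CPM on log2 axes, coloured by condition. The libraries fall along a descending line with DMSO and P-SiaFNEtoc at the lower right, SGN-2FF in the middle and the Fucotrims at the upper left.

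Over the 14 libraries, the correlation of log2 CPM between IGFBP3 and IGF1R was -0.98 (Pearson) and -0.91 (Spearman). The libraries fall into clusters by treatment, so these are descriptions with no test. Without the 2 libraries farthest from the median IGFBP3 level, Fucotrim II replicate 2 and P-SiaFNEtoc replicate 3, Pearson's r was -0.99 (n = 12). Within the 8 libraries of the fucosylation inhibitors it was -0.89 (Spearman -0.81), and within the 6 DMSO and P-SiaFNEtoc libraries -0.69 (Spearman -0.26).

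Among 11836 genes whose mean was 50 counts or more, IGF1R had the lowest Pearson correlation with IGFBP3. It was followed by CHTF18 (-0.97), GAS6-AS1 (-0.97), MUTYH (-0.97) and CHRNA2 (-0.97). The highest were RND3 (0.97), LPGAT1 (0.97), CBLN2 (0.97), ETV4 (0.96) and SEC23B (0.96). RND3 had mean levels of 18.8 CPM in DMSO, 16.5 with P-SiaFNEtoc, 9.95 with SGN-2FF, 6.89 with Fucotrim I and 4.59 with Fucotrim II. Such patterns were common, as 238 genes had a correlation above 0.9, 307 genes one below -0.9, and the median over all genes was 0.099. By Spearman's rank correlation only 1 of these 10 genes stayed among the 5 highest or 5 lowest, and IGF1R was at rank 130.5 from the lowest.

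The other receptors changed less. INSR, the insulin receptor (chr19:7112255-7294414), was at 34.8, 35.7 and 36.0 CPM in DMSO and 53.9 and 42.2 CPM with Fucotrim II (log2 fold change 0.43, SE 0.104). It was at 34.8 to 39.2 CPM in the libraries of the other 3 inhibitors, with log2 fold changes of 0.09 with Fucotrim I, 0.04 with SGN-2FF and -0.01 with P-SiaFNEtoc, none called. INSR was higher than IGF1R per kb in all libraries. The ratio of IGF1R to INSR per kb was 0.248 ± 0.00934 in DMSO (SD, n = 3), 0.242 ± 0.0297 with P-SiaFNEtoc (n = 3), 0.421 ± 0.0261 with SGN-2FF (n = 3), 0.585 ± 0.0374 with Fucotrim I (n = 3) and 0.549 ± 0.0283 with Fucotrim II (n = 2).

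IGF2R (chr6:159969082-160113507) was at 120 to 147 CPM in all libraries and was called with none of the inhibitors. Its log2 fold changes were 0.05 (SE 0.056) with Fucotrim I, 0.03 (SE 0.062) with Fucotrim II, -0.09 (SE 0.043) with SGN-2FF and 0.01 (SE 0.047) with P-SiaFNEtoc. The SGN-2FF libraries, at 120, 125 and 124 CPM, lay just below the DMSO libraries at 132, 129 and 137 CPM. Of the exon bases of IGF2R, 2.5% are shared with the pseudogene CHP1P2 on the same strand.

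The substrates were higher with the Fucotrims, and IRS2 was the one gene of the axis that was called in different directions with the fucosylation inhibitors. IRS2 (chr13:109752695-109786583) was at 241, 196 and 236 CPM in DMSO, 307, 270 and 258 CPM with Fucotrim I, 303 and 322 CPM with Fucotrim II, 189, 185 and 179 CPM with SGN-2FF, and 265, 262 and 238 CPM with P-SiaFNEtoc. The Fucotrim libraries all lay above DMSO and the SGN-2FF libraries all below it. The log2 fold change was 0.31 (SE 0.084) with Fucotrim I, 0.47 (SE 0.090) with Fucotrim II and -0.27 (SE 0.071) with SGN-2FF, all called, and 0.19 (SE 0.080) with P-SiaFNEtoc, not called. The calls for Fucotrim I and SGN-2FF were fragile: that for Fucotrim I was lost without Fucotrim I replicate 2, and that for SGN-2FF without any one of its libraries. For Fucotrim II the log2 fold change ranged from 0.377 to 0.534 over the alternatives. Leaving out a Fucotrim II library leaves 1 treated library, so the stability of that call cannot be judged from such a fit.

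IRS1 (chr2:226731312-226799820) was at 62.3, 57.0 and 55.2 CPM in DMSO, 76.1, 70.2 and 69.4 CPM with Fucotrim I, 79.03 and 85.01 CPM with Fucotrim II, 58.3, 60.5 and 55.9 CPM with SGN-2FF, and 67.3, 67.7 and 64.9 CPM with P-SiaFNEtoc. All conditions but SGN-2FF lay above DMSO. The log2 fold change was 0.31 (SE 0.063) with Fucotrim I, 0.49 (SE 0.074) with Fucotrim II and 0.20 (SE 0.052) with P-SiaFNEtoc, all called, and 0.01 (SE 0.056) with SGN-2FF. The P-SiaFNEtoc call was lost without DMSO replicate 3.

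**Figure D3:**
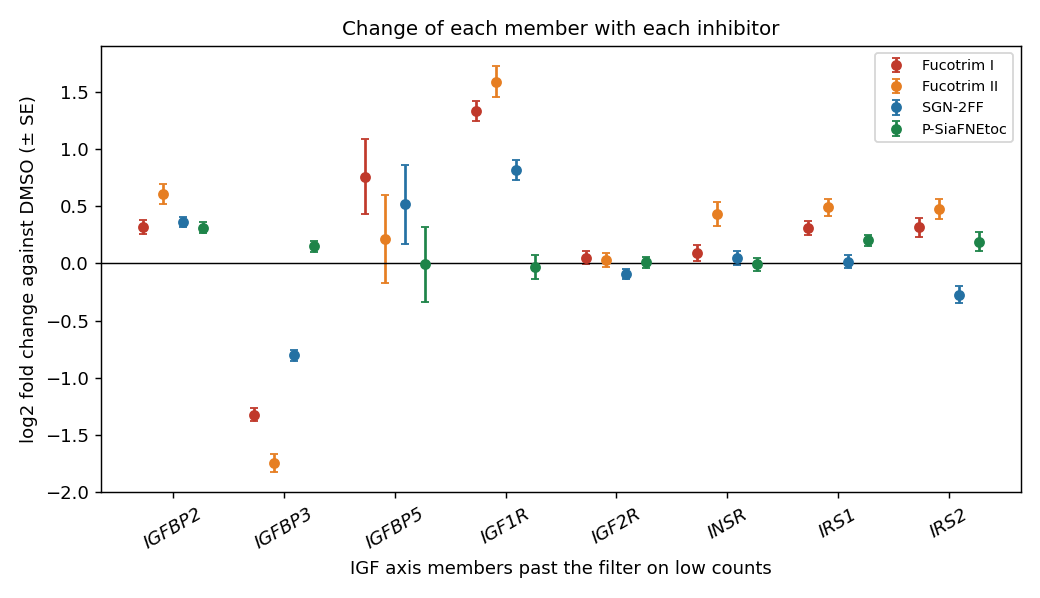
Log2 fold change against DMSO of the 8 IGF axis genes past the filter on low counts, with SE bars, for the 4 inhibitors. IGFBP3 reaches -1.74 and IGF1R 1.59 with Fucotrim II, and the other genes lie between -0.27 and 0.76.

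Counted over the axis, 8 of the 10 genes passed the filter on low counts, and they are not a count of all members. With Fucotrim I, 5 of the 8 were called (4 higher, 1 lower), where 43.8% of the 14188 genes tested were called (21.6% higher, 22.1% lower). With Fucotrim II, 6 were called (5 higher, 1 lower), against 51.4% of 14617 genes (25.6% higher, 25.7% lower). With SGN-2FF, 4 were called (2 higher, 2 lower), against 20.6% of 14312 genes (11.5% higher, 9.08% lower). With P-SiaFNEtoc 3 were called, all higher, against 16.3% of 14259 genes (9.02% higher, 7.33% lower). Libraries of the inhibitor and of DMSO did not overlap for 5, 6, 5 and 3 of the 8 genes with Fucotrim I, Fucotrim II, SGN-2FF and P-SiaFNEtoc, beside 52.6%, 67.7%, 36% and 33.7% of all genes. IGFBP3 and IGF1R were called with a log2 fold change beyond 0.58 with each fucosylation inhibitor, and IGFBP2 with Fucotrim II, where 9.03% of all genes passed both limits with Fucotrim I, 20.8% with Fucotrim II, 2.66% with SGN-2FF and 1.68% with P-SiaFNEtoc. The median log2 fold change of the 8 was 0.31, 0.45, 0.03 and 0.08 in the same order, beside medians within 0.01 of 0 over all genes tested. Nothing is read from these counts, since the genes were chosen with these contrasts known.

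The rest of the pathway was followed through 78 further genes, listed by role. Of those tested, 31 of 68 were called with Fucotrim I (11 rose, 20 fell), 38 of 70 with Fucotrim II (16 rose, 22 fell), 19 of 69 with SGN-2FF (8 rose, 11 fell) and 16 of 69 with P-SiaFNEtoc (11 rose, 5 fell). These shares, 45.6%, 54.3%, 27.5% and 23.2%, lie beside 43.8%, 51.4%, 20.6% and 16.3% of all genes. Their median log2 fold changes were -0.07, -0.02, -0.04 and 0.04.

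Among the ligands, IGF1 was detected at a low level, and IGF2 and INS hardly or not at all. IGF1 was at 2.86, 3.72 and 3.20 CPM in DMSO, 1.86, 1.69 and 1.76 CPM with Fucotrim I, 1.86 and 2.15 CPM with Fucotrim II, 3.94, 5.76 and 5.70 CPM with SGN-2FF, and 3.51, 4.48 and 4.73 CPM with P-SiaFNEtoc. The Fucotrim libraries lay below DMSO and the SGN-2FF libraries above it. IGF1 fell by 0.88 on the log2 scale with Fucotrim I (SE 0.21, edgeR adjusted p = 0.00217) and by 0.70 with Fucotrim II (SE 0.22, edgeR adjusted p = 0.0222), and rose by 0.68 with SGN-2FF (SE 0.17, edgeR adjusted p = 0.00580). With P-SiaFNEtoc its log2 fold change was 0.37 (SE 0.17, edgeR adjusted p = 0.136). The Fucotrim II call was lost without DMSO replicate 2 or DMSO replicate 3, among other alternatives, and the SGN-2FF call was lost without SGN-2FF replicate 2. Of the exon bases of IGF1, 82.5% lie opposite the noncoding gene HELLPAR. The strand setting of the counting is not given in the sources used here, so reads of the pair cannot be told apart.

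IGF2 had 0 to 2 counts per library and INS had 0 counts in every library. IGFALS, the acid-labile subunit that joins IGF and IGFBP3 in the serum complex, had 15 to 41 counts and was not called with any inhibitor (log2 fold changes 0.52, 0.78, 0.03 and 0.21 with Fucotrim I, Fucotrim II, SGN-2FF and P-SiaFNEtoc). IGFBP7, a low-affinity binding protein, had 0 to 5 counts. IGFBP1, whose gene neighbours IGFBP3 on chromosome 7, had 24, 13 and 18 counts in DMSO, 5, 11 and 3 with Fucotrim I, 2 and 3 with Fucotrim II, 10, 7 and 13 with SGN-2FF and 24, 5 and 18 with P-SiaFNEtoc. It was called lower with both Fucotrims (edgeR adjusted p = 0.0262 and 0.00188), and the Fucotrim I call was lost in 6 alternatives, among them leaving out DMSO replicate 1, DMSO replicate 3, Fucotrim I replicate 1 or Fucotrim I replicate 3. No fold is given for Fucotrim II, where the counts are at the limit of detection.

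The proteases that cut IGF binding proteins, their inhibitors and the receptors of IGFBP3 formed a list of 7 genes. With Fucotrim II, 5 of 6 tested were called (4 rose, 1 fell), with Fucotrim I 2 of 5, with SGN-2FF 2 of 6 and with P-SiaFNEtoc 1 of 6, where 51.4%, 43.8%, 20.6% and 16.3% of all genes were called. LRP1, an endocytic receptor that binds IGFBP3, was at 6.82, 5.89 and 7.58 CPM in DMSO and 17.1 and 13.3 CPM with Fucotrim II, and rose by 1.17 (SE 0.15, edgeR adjusted p = 0.000225). It rose by 0.43 with SGN-2FF (edgeR adjusted p = 0.0106) and by 0.42 with P-SiaFNEtoc (edgeR adjusted p = 0.0230), while with Fucotrim I its log2 fold change was 0.16 (edgeR adjusted p = 0.360). The SGN-2FF call for LRP1 was lost without DMSO replicate 2 or SGN-2FF replicate 2, and the P-SiaFNEtoc call without DMSO replicate 2, P-SiaFNEtoc replicate 1 or P-SiaFNEtoc replicate 2. The stanniocalcins, secreted inhibitors of pappalysins, which cut IGFBP4 and IGFBP5, split. STC2 fell with Fucotrim I from 15.01, 15.34 and 14.04 CPM to 7.89, 8.31 and 9.63 CPM, a log2 fold change of -0.79 (SE 0.11, edgeR adjusted p = 8.23e-06). With Fucotrim II it fell by 0.41 (SE 0.12, edgeR adjusted p = 0.0192), a call not kept in every alternative. The STC2 values with SGN-2FF and P-SiaFNEtoc, -0.045 and 0.169, were not called. STC1, which had 10 to 37 counts per library, rose by 1.35 (SE 0.30) with Fucotrim I, 1.22 (SE 0.39) with Fucotrim II and 1.57 (SE 0.31) with SGN-2FF (edgeR adjusted p = 0.00118, 0.0240 and 0.000633). With P-SiaFNEtoc its libraries also all lay above DMSO, with a log2 fold change of 0.75 (SE 0.32, edgeR adjusted p = 0.108) that was not called. The Fucotrim II libraries were far apart for STC1, at 0.962 and 2.09 CPM, and without Fucotrim II replicate 2 the value was 0.54. The Fucotrim II call for STC1 was lost without any one DMSO library and with the DESeq2 test.

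**Figure D4:**
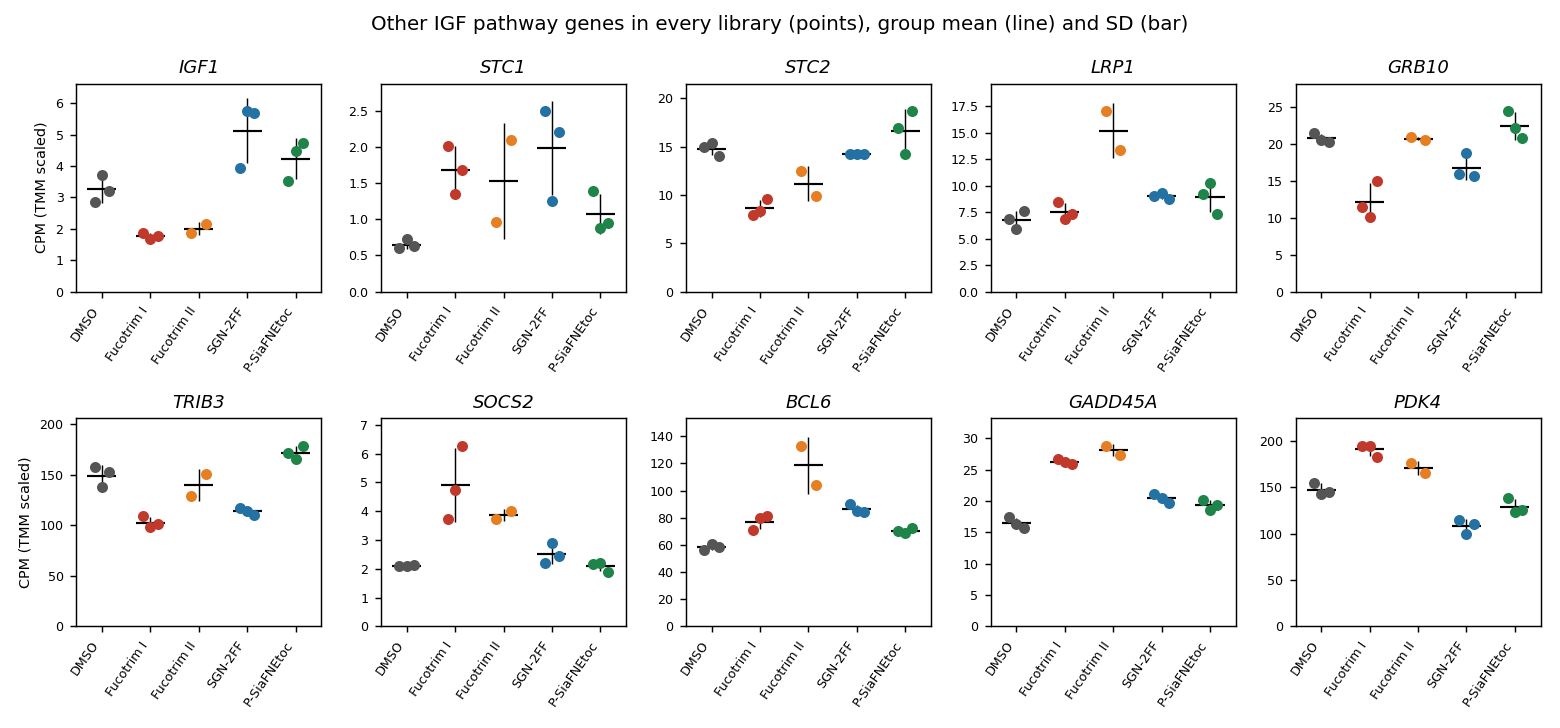
Level of 10 further genes of the IGF pathway in every library, in CPM on a linear axis from 0. Points are libraries, the horizontal line is the group mean and the vertical bar its SD. GRB10 and STC2 are lowest with Fucotrim I, BCL6 and LRP1 are highest with Fucotrim II, and PDK4 is above DMSO with the Fucotrims and below it with SGN-2FF.

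Downstream of the receptors, the counts are to be read beside the shares of all genes given above. Of 10 adaptors tested, 5 fell and 1 rose with Fucotrim I, 2 fell and 2 rose with Fucotrim II, 2 fell and 1 rose with SGN-2FF, and 1 fell with P-SiaFNEtoc. GRB10, an adaptor that restrains IGF1R and INSR signalling, fell with Fucotrim I from 21.4, 20.5 and 20.3 CPM to 11.5, 10.1 and 14.9 CPM, a log2 fold change of -0.78 (SE 0.11, edgeR adjusted p = 1.21e-05). It was -0.29 with SGN-2FF (edgeR adjusted p = 0.0137), a call lost without SGN-2FF replicate 1 or SGN-2FF replicate 3, and -0.01 with Fucotrim II (edgeR adjusted p = 0.935). SOS1, the exchange factor that loads RAS with GTP, fell by 0.35, 0.36, 0.23 and 0.17 with Fucotrim I, Fucotrim II, SGN-2FF and P-SiaFNEtoc (edgeR adjusted p = 0.000226, 0.00792, 0.00541 and 0.0369). The P-SiaFNEtoc call for SOS1 was lost in 7 alternatives, among them leaving out DMSO replicate 2, DMSO replicate 3, P-SiaFNEtoc replicate 2 or P-SiaFNEtoc replicate 3.

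In the RAS and MAPK arm (8 tested), 4 genes fell with Fucotrim I, 5 fell and 1 rose with Fucotrim II, 3 fell with SGN-2FF and 1 rose with P-SiaFNEtoc. NRAS, a GTPase, fell by 0.58 with Fucotrim II (SE 0.083, edgeR adjusted p = 0.000417). It also fell by 0.37 with Fucotrim I and by 0.25 with SGN-2FF (edgeR adjusted p = 5.97e-05 and 0.000633). With P-SiaFNEtoc its log2 fold change was -0.05 (edgeR adjusted p = 0.480). MAPK3 (ERK1) was the gene that rose with P-SiaFNEtoc (0.24, edgeR adjusted p = 0.000933, not called with all 14 libraries in 1 fit) and with Fucotrim II (0.34, edgeR adjusted p = 0.00752).

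In the PI3K and AKT group (11 tested), 7 fell and 1 rose with Fucotrim II, 3 rose and 2 fell with Fucotrim I, 2 rose and 2 fell with SGN-2FF, and 1 rose with P-SiaFNEtoc. The mTOR arm (13 tested) had 2 rises and 3 falls with Fucotrim I, 1 rise and 2 falls with Fucotrim II, no call with SGN-2FF and 3 rises and 2 falls with P-SiaFNEtoc. With P-SiaFNEtoc the largest rise called in the whole list was that of DEPTOR, an inhibitory partner of mTOR, from 8.20, 7.56 and 7.46 CPM to 11.8, 10.6 and 10.9 CPM (0.53, SE 0.10, edgeR adjusted p = 0.000621). DDIT4, which restrains mTOR under stress, fell by 0.25 with P-SiaFNEtoc (SE 0.078, edgeR adjusted p = 0.0284), a call lost without DMSO replicate 1, P-SiaFNEtoc replicate 1 or P-SiaFNEtoc replicate 3. Of the IGF2 mRNA-binding proteins, IGF2BP1 fell by 0.55 with Fucotrim II (SE 0.18, edgeR adjusted p = 0.0298). That call was lost without DMSO replicate 1 or DMSO replicate 2, among other alternatives.

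The feedback regulators and FOXO targets moved in both directions. SOCS2, an inhibitor of cytokine and growth factor signalling, was at 2.09, 2.11 and 2.13 CPM in DMSO and 3.73, 4.73 and 6.28 CPM with Fucotrim I, and rose by 1.21 (SE 0.20, edgeR adjusted p = 7.87e-05). With Fucotrim II it rose by 0.87 (SE 0.19, edgeR adjusted p = 0.00363). The SOCS2 values with SGN-2FF and P-SiaFNEtoc, 0.28 and -0.01, were not called. TRIB3, a pseudokinase known to bind AKT, fell by 0.54 with Fucotrim I (SE 0.060, edgeR adjusted p = 6.14e-07) and by 0.38 with SGN-2FF (SE 0.048, edgeR adjusted p = 1.82e-06), and rose by 0.21 with P-SiaFNEtoc (SE 0.046, edgeR adjusted p = 0.00224). Of 8 FOXO targets, 3 rose and 1 fell with Fucotrim I, 4 rose with Fucotrim II, 2 rose and 2 fell with SGN-2FF, and 4 rose and 2 fell with P-SiaFNEtoc.

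BCL6, a transcriptional repressor, was at 56.5, 61.0 and 58.7 CPM in DMSO and 133 and 104 CPM with Fucotrim II. It rose by 1.01 on the log2 scale with Fucotrim II (SE 0.10, edgeR adjusted p = 6.08e-05), 0.57 with SGN-2FF (SE 0.050, edgeR adjusted p = 2.08e-09), 0.40 with Fucotrim I (SE 0.063, edgeR adjusted p = 4.18e-05) and 0.27 with P-SiaFNEtoc (SE 0.050, edgeR adjusted p = 0.000345). GADD45A, a stress-induced growth arrest gene, rose by 0.68, 0.77, 0.32 and 0.24 with Fucotrim I, Fucotrim II, SGN-2FF and P-SiaFNEtoc (edgeR adjusted p = 1.60e-06, 0.000126, 0.00411 and 0.0325). The P-SiaFNEtoc call for GADD45A was lost without DMSO replicate 2 or DMSO replicate 3 and without any one P-SiaFNEtoc library. PDK4, a kinase that limits the use of glucose in mitochondria, fell by 0.44 with SGN-2FF (SE 0.050, edgeR adjusted p = 2.95e-07) and by 0.19 with P-SiaFNEtoc (SE 0.047, edgeR adjusted p = 0.00607, lost without P-SiaFNEtoc replicate 2). With the Fucotrims PDK4 had log2 fold changes of 0.38 and 0.21, both called, the second only with all DMSO libraries. SESN3, a stress-induced sestrin, fell by 0.40 with P-SiaFNEtoc (SE 0.063, edgeR adjusted p = 3.80e-05). Of the exon bases of BCL6, 8.2% lie opposite other genes, and for DEPTOR and SOCS2 the shares are 9.6% and 4.3%.

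**Figure D5:**
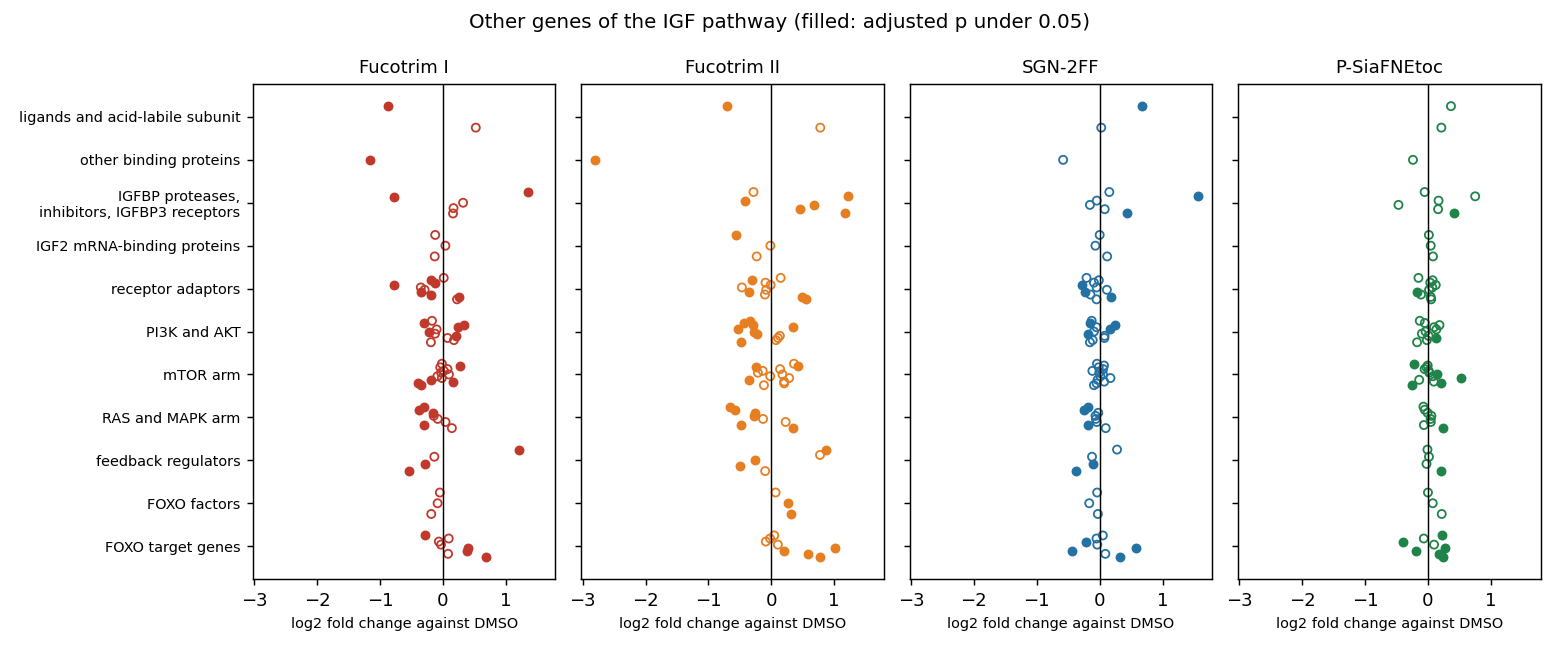
Log2 fold change against DMSO (x axis) of the other IGF pathway genes that passed the filter on low counts, by role (y axis) and inhibitor (panels). Each circle is a gene, and filled circles had an adjusted p-value under 0.05. Filled circles are most numerous with Fucotrim II (38) and fewest with P-SiaFNEtoc (16).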

How the data were processed

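The labels describe stranded mRNA libraries of CWR22Rv1 cells. In Galaxy, the authors trimmed the single reads (Cutadapt), aligned them (HISAT2, hg38) and assigned them to genes (featureCounts). They deposited whole-number counts that had not been normalized, as a table for each inhibitor that also holds the DMSO libraries. The DMSO counts were identical in the 4 tables over 27819 shared genes. The annotation release, the strand setting and the handling of multi-mapped reads are not given in the sources used here. The study describes 3 repeats per condition, and 2 Fucotrim II libraries were analysed here. Doses come from the study's methods. Reads of a few genes that overlap others cannot be assigned with certainty, and precision is bounded by 12553094 to 19981453 counts per library.

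Genes were filtered with filterByExpr (minimum count 10, minimum total 15), scaled by TMM and tested for each inhibitor against DMSO with the robust quasi-likelihood test of edgeR 4.0.16 in R 4.3.3, with Benjamini-Hochberg adjustment over all genes tested. The test was checked on simulated data in which far fewer genes changed than were called here. That check does not cover changes as widespread as these. Correlations used log2 CPM with a prior count of 2. Positions are from GENCODE v44 (hg38), and promoter windows from RefSeq (GRCh38.p14), where all 10 members had at least 1 window.

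The members and lists were chosen with earlier results of these data known. Named genes are the 10 members, IGF1, IGF2, INS, IGFBP1, IGFBP7 and IGFALS, for each inhibitor up to 3 rises and 3 falls among called pathway genes that averaged 50 counts or more and whose libraries did not overlap with DMSO, and the 5 highest and 5 lowest correlations with IGFBP3. STC1, SOS1, MAPK3, SH2B1, PIK3CB, PTPN11 and HRAS were named after their values were seen. Results for a few genes that the rule names are not reported here. Alternatives were leaving out each library, a replicate block, size factors and the test of DESeq2 1.42.0, limma-voom (limma 3.58.1), no filter, 1 fit of all 14 libraries, an adjusted p-value under 0.01, and another gene length and correlation.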

Additional observations from a re-analysis of the deposited data

Results flagged for a closer look

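Among the members and the pathway genes named by the rule, 5 were called with all libraries of 1 inhibitor on one side of the DMSO libraries and all libraries of another inhibitor on the other side. The same holds for 4 other genes of the pathway list. The difference between inhibitors was not tested in any of these cases, the doses differ, and the comparisons share their DMSO libraries. IGFBP3 had a log2 fold change of 0.15 with P-SiaFNEtoc, while the values were -1.32 for Fucotrim I, -1.74 for Fucotrim II and -0.81 for SGN-2FF. IRS2 had 0.31 with Fucotrim I and 0.47 with Fucotrim II, beside -0.27 with SGN-2FF. For IGF1 the value was 0.68 with SGN-2FF, beside -0.88 with Fucotrim I and -0.70 with Fucotrim II. PDK4 had 0.38 with Fucotrim I and 0.21 with Fucotrim II, beside -0.44 with SGN-2FF and -0.19 with P-SiaFNEtoc. TRIB3 had 0.21 with P-SiaFNEtoc, beside -0.54 with Fucotrim I and -0.38 with SGN-2FF. No group has more than 3 libraries, so no library was judged to be outlying, although each was left out in turn. Libraries of a group were also compared in pairs by the mean chi-square of their counts per gene. It was 24.2 for Fucotrim II and 5.66 to 17.9 for Fucotrim I, beside 1.80 to 4.37 for DMSO. For SGN-2FF it was 1.59 to 2.77 and for P-SiaFNEtoc 2.00 to 3.555.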

How the results depend on the processing

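The IGFBP3 and IGF1R calls with the 3 fucosylation inhibitors were kept in all alternatives that left more than 1 library in each group. Leaving out a Fucotrim II library leaves 1 treated library. The spread in such a fit comes from DMSO alone, so a call kept there does not show stability. Without 1 library each in turn, 4 to 6 axis genes were called with Fucotrim I, 3 to 5 with SGN-2FF and 2 to 4 with P-SiaFNEtoc. Of the other pathway genes, 24 to 38, 13 to 21 and 8 to 13 were called in the same order. No such range is given for Fucotrim II. The count of other pathway genes called with P-SiaFNEtoc was 10 without DMSO replicate 2, 8 without P-SiaFNEtoc replicate 2 and 10 without P-SiaFNEtoc replicate 3, against 16, and the causes of these shifts were not tested. It was 9 with the DESeq2 test, 4 with all 14 libraries in 1 fit and 7 at an adjusted p-value under 0.01. For Fucotrim II and SGN-2FF that threshold gave 25 and 12. Spearman's correlation shared 1 gene with the Pearson choice.

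The replicate number as a block gave 24 other pathway genes with Fucotrim II, against 38. Over all genes the block gave 7288 calls against 6209 with Fucotrim I, 5300 against 7511 with Fucotrim II (7779 with the numbers in the library names), 2868 against 2946 with SGN-2FF and 2674 against 2331 with P-SiaFNEtoc. Deviations of same-numbered libraries correlated at 0.151, 0.135 and 0.021 with Fucotrim I, -0.167 and -0.23 with Fucotrim II (0.23 and 0.065 by library name), 0.066, -0.026 and -0.068 with SGN-2FF and -0.044, 0.024 and -0.02 with P-SiaFNEtoc, so the numbers were not taken to pair the samples.

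Signs turned only where a change was small and not called. IGFBP5 with Fucotrim II was -0.037 with the block by library name, and with P-SiaFNEtoc it was 0.018 with the block and 0.06 with limma-voom. Over the fits that left out a library, IGFBP5 ranged from -0.059 to 0.557 with Fucotrim II and from -0.28 to 0.343 with P-SiaFNEtoc, IGF2R from -0.002 to 0.088 with Fucotrim I and from -0.045 to 0.061 with P-SiaFNEtoc, IRS1 from -0.026 to 0.062 and IGFALS from -0.144 to 0.284 with SGN-2FF, and IGF1R from -0.102 to 0.065 and IGFBP1 from -0.536 to 0.119 with P-SiaFNEtoc. IRS2 with P-SiaFNEtoc was called without DMSO replicate 1, with the block, with limma-voom and with no filter. The low counts of IGFBP4, IGFBP5, IGFBP6 and IGFBP1 limit what can be seen for them.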

Other observations

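Other genes of the pathway had calls that stand beside that of NRAS. SH2B1, an adaptor that enhances insulin receptor signalling, rose by 0.26, 0.48 and 0.19 on the log2 scale under Fucotrim I, Fucotrim II and SGN-2FF (edgeR adjusted p = 0.000578, 0.000275 and 0.00417), and its log2 fold change with P-SiaFNEtoc was 0.04 (edgeR adjusted p = 0.538). PIK3CB, a catalytic subunit of PI3K, fell by 0.31, 0.43 and 0.15 with the same 3 inhibitors (edgeR adjusted p = 0.000197, 0.000543 and 0.0440). PTPN11, the phosphatase SHP2, fell by 0.29, 0.50 and 0.11 (edgeR adjusted p = 0.000104, 0.000165 and 0.0366). The SGN-2FF calls were the least stable: that of SH2B1 was lost without SGN-2FF replicate 2, that of PIK3CB without any one DMSO library and without SGN-2FF replicate 1 or 2, and that of PTPN11 without DMSO replicate 1 or 3 and without SGN-2FF replicate 1 or 2. The 3 comparisons share their DMSO libraries.

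IGFBP4 had 20 and 27 counts in SGN-2FF replicates 2 and 3 but 2 counts in replicate 1, and at most 3 counts in any library of another condition. HRAS, a RAS family GTPase, had 88 counts in DMSO replicate 1 and 60 counts in SGN-2FF replicate 3, but 0 to 12 counts in all other libraries, and did not pass the filter on low counts.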
